A study of Mus musculus with 18 samples.

Results

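The galectins are described here through 6 genes, Lgals1, Lgals3, Lgals4, Lgals8, Lgals9 and the galectin-3-binding protein gene Lgals3bp, among the 54532 genes of the liver expression table. The genes were taken by name, and the set was chosen by their measured values in the comparisons of these same mice, so their differences between groups are a description and support nothing by themselves. Liver RNA was sequenced in 18 male C57BL/6J mice, 6 per group. NC mice received normal chow throughout. HFD mice received the high-fat diet for 14 weeks and then saline while the diet went on. SZ-A mice received the same diet and then SZ-A, the alkaloids extracted from mulberry twig (Ramulus Mori). All mice were fasted overnight before the liver was taken, and HFD and SZ-A mice share the diet and its length, so the drug was studied on a high-fat diet only. The treatment lasted 8 weeks by the deposited description and 6 by the study's methods, and the dose and route of the sequenced mice are not given in the sources used here. One NC mouse, number 6, carries a high-fat diet among its labels against its own title. It was kept in NC, and its values are given with the rest.

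Galectins are lectins that bind galactose-containing sugars on glycoproteins through a conserved carbohydrate-recognition domain. Galectin-1 (Lgals1) is a prototype galectin with a single domain that works as a dimer and is made by mesenchymal, endothelial and immune cells. Galectin-3 (Lgals3) joins a single domain to a flexible tail and is abundant in macrophages, where it is widely used as a marker of activation and fibrosis. Galectin-4, galectin-8 and galectin-9 carry a pair of domains in 1 chain. Galectin-4 is best known from the gut epithelium, galectin-8 binds sugars exposed on broken endosomes and lysosomes, and galectin-9 is known as a ligand of the T cell receptor Tim-3 and is made by Kupffer cells and other liver cells. Lgals3bp is not a lectin: it encodes a large secreted glycoprotein, induced by interferon, that galectins bind.

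The carbohydrate-recognition domain is what the 5 lectin genes share, so the codons of its sugar-contacting signature (histidine, any residue, asparagine, proline, arginine) are shown with 5 codons on each side, 5′ to 3′ in lower case with the signature in capitals, from the reference coding sequences (GENCODE, GRCm38).
Lgals1: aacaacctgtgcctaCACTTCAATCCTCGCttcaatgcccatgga
Lgals3: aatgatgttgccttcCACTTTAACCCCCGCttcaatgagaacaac
Lgals4, first domain: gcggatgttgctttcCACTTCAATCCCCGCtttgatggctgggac
Lgals4, second domain: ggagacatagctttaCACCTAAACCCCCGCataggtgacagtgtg
Lgals8, first domain: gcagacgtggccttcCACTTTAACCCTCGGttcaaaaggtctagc
Lgals8, second domain: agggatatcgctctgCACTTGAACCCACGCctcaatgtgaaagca
Lgals9, first domain: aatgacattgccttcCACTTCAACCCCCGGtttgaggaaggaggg
Lgals9, second domain: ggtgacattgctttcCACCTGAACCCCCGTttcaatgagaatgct

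The signature was found once in Lgals1 and Lgals3 and in 2 copies in Lgals4, Lgals8 and Lgals9. The search found 0 copies in Lgals3bp, whose coding sequence spans 577 codons. Over the 45 bases the 8 stretches shared between 48.9% and 73.3% of positions in their 28 pairs. The closest pair was Lgals3 with the second domain of Lgals9 and the most distant pair was Lgals1 with the second domain of Lgals4. The genes are scattered over 5 chromosomes, with Lgals9 and Lgals3bp both on chromosome 11. The Lgals1 stretch is at chr15:78929661-78929705 on the plus strand, in exon 3 of 4. The Lgals3 stretch is at chr14:47384627-47384671 on the plus strand, in exon 5 of 6. The Lgals4 stretch of the first domain is at chr7:28835864-28835908 on the plus strand, in exon 3 of 10. The Lgals4 stretch of the second domain is at chr7:28841176-28841220 on the plus strand, in exon 9 of 10. The Lgals8 stretch of the first domain is at chr13:12454858-12454902 on the minus strand, in exon 4 of 10. The Lgals8 stretch of the second domain is at chr13:12447237-12447281 on the minus strand, in exon 9 of 10. The Lgals9 stretch of the first domain is at chr11:78973111-78973155 on the minus strand, in exon 3 of 11. The Lgals9 stretch of the second domain is at chr11:78965785-78965829 on the minus strand, in exon 10 of 11.

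The genes lie at these positions of GRCm38, with the same bounds in the expression table and in the annotation. Lgals1 spans chr15:78926725-78930465 on the plus strand. Lgals3 spans chr14:47367751-47386160 on the plus strand. Lgals4 spans chr7:28833854-28841708 on the plus strand. Lgals8 spans chr13:12439415-12464944 on the minus strand and overlaps Heatr1, a gene of the opposite strand with a mean of 2.68 FPKM over the 18 mice. Whether fragments were counted by strand is not given in the sources used here, so reads of Lgals8 and Heatr1 in the shared stretch may not have been told apart. Lgals9 spans chr11:78962974-78984946 and Lgals3bp spans chr11:118392751-118402092, both on the minus strand.

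Levels are in FPKM, fragments per kilobase of gene divided by a library size, as the authors deposited them. That size, worked back from the values, was 0.93 to 1.02 times the fragments on genes in NC mice. It was 0.998 to 1.14 times in HFD mice and 0.97 to 1.05 times in SZ-A mice. It is therefore not the plain fragment total, and how it was set is not given in the sources used here. Multiplied by gene length, the values came back to whole fragments in 100% of cases (tolerance 0.05 of a fragment), with 17163191 to 20493907 fragments on genes per mouse. The tissue matched its label: all 12 hepatocyte markers passed the filter on low values, and their summed level was between 30832 and 65172 FPKM in the 18 mice. A gene was tested where its mean over the 18 mice was at least 1 FPKM, which all 6 members passed, and was called where the limma test on log2(FPKM + 0.1) gave an adjusted p under 0.05 with a fold over 1.2. The labels do not say which mice shared a cage or a litter. A bulk liver sample cannot tell fewer cells of a type from less RNA per cell, and this holds for every level below.

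Lgals1 was the galectin whose level differed most between the groups. In NC livers it measured 6.04, 14.7, 12.2, 7.60, 3.01 and 15.8 FPKM in mice 1 to 6. In HFD livers it measured 82.1, 85.8, 52.0, 64.2, 63.5 and 61.5 FPKM. In SZ-A livers it measured 13.4, 40.9, 16.6, 10.04, 18.1 and 25.7 FPKM. Every HFD mouse was above every mouse of the other groups, and SZ-A mouse 2 was the highest outside HFD. The SZ-A and NC ranges overlapped through SZ-A mice 1 and 4. The NC, HFD and SZ-A means were 9.90 ± 5.13, 68.2 ± 13.1 and 20.8 ± 11.2 FPKM (SD, n = 6). Lgals1 was called higher in HFD than in NC, 7.75-fold, with a log2 difference of 2.95 ± 0.34 (SE). It was called lower in SZ-A than in HFD, with a log2 difference of -1.84 ± 0.28. The SZ-A level relative to NC, 2.17-fold, was not called. The spread within NC and SZ-A was wide, with a highest mouse 5.26 and 4.07 times the lowest, against 1.65 times in HFD. The NC values rest on 44 to 270 fragments a mouse, the HFD values on 880 to 1781, so counting error was at most 15.1% of a value and below the spread between mice.

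The call of Lgals1 in SZ-A against HFD rested on the setting. Its log2 difference stayed between -2.06 and -1.66 under 20 alternatives, but the adjusted p ran from 0.00133 to 0.123 (limma) and 9 of the 20 lost the call, 7 of them by leaving out a single mouse (HFD mouse 1, 2 or 4, or SZ-A mouse 1, 3, 4 or 6) and the others by testing without the filter and with a replicate block.

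Lgals3, the macrophage galectin, had the same order of group means at a lower level. NC mice measured 2.42, 3.12, 2.69, 3.77, 2.36 and 4.05 FPKM. HFD mice measured 17.8, 11.1, 8.98, 12.9, 6.28 and 9.10 FPKM. SZ-A mice measured 3.41, 6.18, 4.36, 2.95, 7.08 and 5.99 FPKM. No HFD mouse came down to the NC range, while SZ-A mouse 5 was above HFD mouse 5, so the SZ-A and HFD ranges overlapped at that point. The means were 3.07 ± 0.711, 11.0 ± 3.99 and 4.996 ± 1.67 FPKM (SD, n = 6). Lgals3 was called higher in HFD than in NC, 3.40-fold (log2 difference 1.77 ± 0.22, SE). The SZ-A group mean was lower than that of HFD (log2 difference -1.12 ± 0.26) without reaching the call, and 1.56 times that of NC, also not called.

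Lgals3bp, the secreted binding partner, was also higher on the diet. NC mice measured 24.7, 25.4, 29.8, 24.3, 21.6 and 30.7 FPKM. HFD mice measured 44.6, 39.3, 50.5, 53.6, 44.3 and 35.2 FPKM. SZ-A mice measured 31.2, 35.7, 41.2, 32.7, 43.5 and 34.4 FPKM. Both high-fat diet groups lay wholly above the NC range, and they overlapped each other. The means were 26.1 ± 3.48, 44.6 ± 6.82 and 36.5 ± 4.89 FPKM (SD, n = 6). It was called higher in HFD than in NC, 1.70-fold (log2 difference 0.77 ± 0.12, SE), and it was the member called between SZ-A and NC, 1.40-fold higher in SZ-A (log2 difference 0.48 ± 0.11). SZ-A against HFD gave a log2 difference of -0.28 ± 0.11 and no call.

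**Figure D1:**
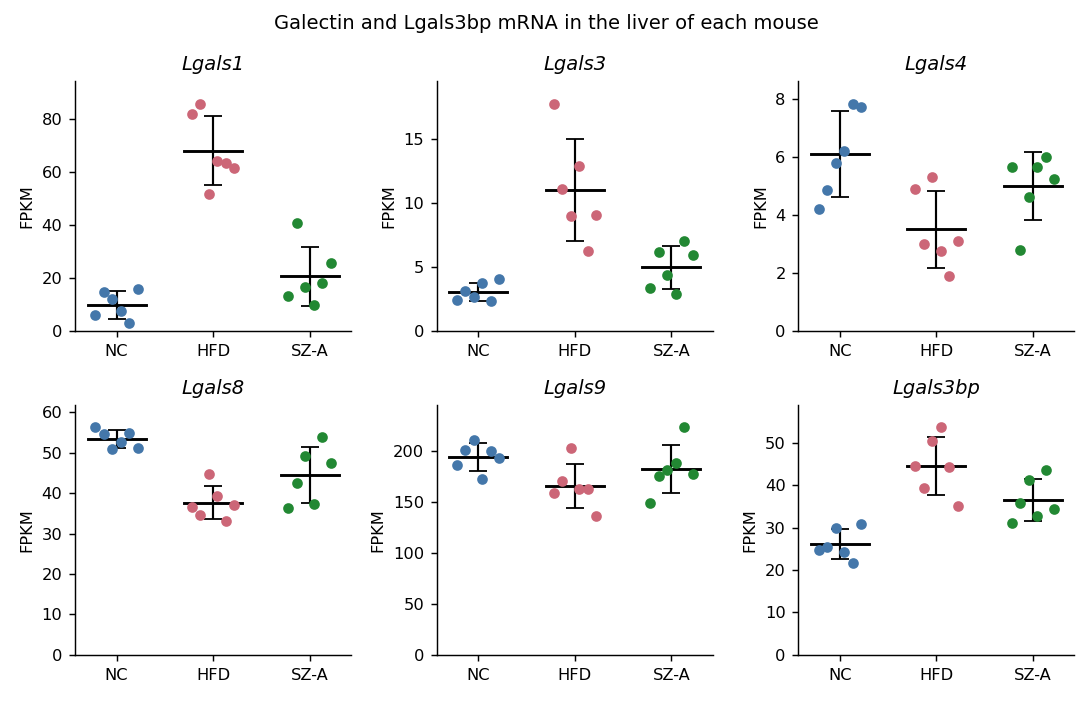
FPKM (y axis, from 0) of each of the 6 genes in NC, HFD and SZ-A livers, with a point per mouse in the order of mouse numbers 1 to 6, the group mean as a horizontal line and the SD as the bar. The HFD points of Lgals1 all lie between 52.0 and 85.8 FPKM, above all NC and SZ-A points.

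Of the galectins with paired domains, Lgals4 and Lgals8 were lower in HFD. Lgals4 measured 4.22, 4.88, 5.78, 6.23, 7.84 and 7.74 FPKM in NC mice. It measured 4.91, 3.01, 5.32, 2.78, 1.91 and 3.12 FPKM in HFD mice and 5.65, 2.81, 4.61, 5.66, 6.00 and 5.24 FPKM in SZ-A mice. The HFD and NC ranges overlapped through HFD mice 1 and 3, and SZ-A mouse 2 sat alone at the low end of its group. The means were 6.12 ± 1.47, 3.51 ± 1.32 and 4.995 ± 1.17 FPKM (SD, n = 6). Lgals4 was called lower in HFD than in NC (log2 difference -0.83 ± 0.23, SE) and was not called in SZ-A against HFD (0.54 ± 0.24) or against NC (-0.29 ± 0.20). The HFD call was lost without the filter, at the same total FPKM per mouse and with a replicate block, at an unchanged direction. The values rest on 82 to 338 fragments a mouse.

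Lgals4 is a gut gene, so markers of intestine and pancreas were read beside it. Of the 12 markers, 10 were below 0.1 FPKM on average in NC and in HFD livers and 9 in SZ-A livers, and 4, 5 and 6 were at 0 in every mouse of NC, HFD and SZ-A. The pair of markers that passed the filter, Fabp2 and Cela1, made up nearly all of the summed level of 99.1 to 168.7 FPKM in the 18 mice. Neither was called in HFD against NC, where Lgals4 was (Fabp2 log2 difference 0.02, Cela1 0.44). In SZ-A against NC, where Lgals4 was not called, Cela1 was called higher (log2 difference 1.12, adjusted p = 0.000274, limma), and in SZ-A against HFD it was not called (0.68, adjusted p = 0.1, limma).

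Lgals8, the sensor of damaged endosomes and lysosomes, was the tightest member in NC livers. NC mice measured 56.2, 54.6, 50.9, 52.6, 54.8 and 51.1 FPKM, a CV of 4.06%. HFD mice measured 36.6, 34.6, 44.6, 39.4, 33.2 and 37.1 FPKM. SZ-A mice measured 36.3, 42.6, 49.2, 37.4, 53.9 and 47.5 FPKM. All HFD mice were below all NC mice. SZ-A mice were spread from the HFD level to the NC level, and their CV was 15.7%. The means were 53.4 ± 2.17, 37.6 ± 4.06 and 44.5 ± 6.96 FPKM (SD, n = 6). Lgals8 was called lower in HFD than in NC, at 0.702 of the NC level (log2 difference -0.51 ± 0.08, SE). It was not called in SZ-A against HFD (0.23 ± 0.11) or against NC (-0.28 ± 0.10). The number of fragments, 2269 to 3931 a mouse, puts the counting error at 2.10% or less, below the spread between mice of any group.

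Lgals9 had the highest level of the family in every mouse. NC mice measured 186, 201, 211, 172, 200 and 193 FPKM. HFD mice measured 159, 170, 203, 163, 163 and 137 FPKM. SZ-A mice measured 149, 175, 181, 188, 223 and 177 FPKM. The ranges of all 3 groups overlapped. The means were 194 ± 13.5, 166 ± 21.4 and 182 ± 23.9 FPKM (SD, n = 6), and no comparison was called. The log2 differences were -0.23 ± 0.09 (SE) for HFD against NC, 0.14 ± 0.10 for SZ-A against HFD and -0.10 ± 0.09 for SZ-A against NC. The direction of the SZ-A and HFD difference turned to -0.04 once each mouse's values were scaled to the same total FPKM.

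Counted over the set, 5 of the 6 members were called in HFD against NC, 3 higher and 2 lower, where 20.2% of the 10216 tested genes were called. In SZ-A against HFD 1 of 6 was called, Lgals1, where 0.147% of genes were. In SZ-A against NC 1 of 6 was called, Lgals3bp, where 9.6% of genes were. The HFD and NC ranges did not overlap for 4 members (Lgals1, Lgals3, Lgals8 and Lgals3bp), and 10.5% of all tested genes had no overlap. For SZ-A against HFD this held for Lgals1 alone of the 6, against 1.28% of genes, and for SZ-A against NC for Lgals3bp alone of the 6, against 5.5%. Nothing is read from these counts, because the members were selected on these comparisons. The first and second comparison also share the HFD mice. The median log2 difference of all tested genes was -0.03, 0.03 and -0.01 in the 3 comparisons, and scaling the mice to the same total FPKM moved it to 0.15 in HFD against NC and to -0.15 in SZ-A against HFD. The calls then split into 2100 higher and 334 lower in HFD against NC, in place of 1092 and 970, and into 10 higher and 206 lower in SZ-A against HFD, in place of 8 and 7. Lgals1, Lgals3, Lgals4, Lgals8 and Lgals3bp kept their direction in every comparison under that scaling. A kept direction is no kept size: over the 20 alternatives the log2 difference of Lgals8 in SZ-A against HFD ran from 0.06 to 0.29.

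**Figure D2:**
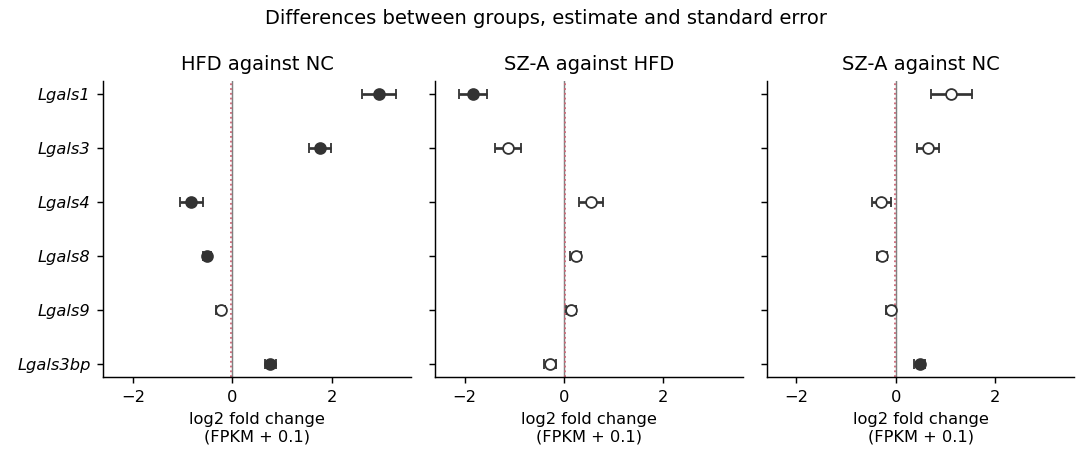
Log2 fold change of log2(FPKM + 0.1) (x axis) for each gene in the 3 comparisons, the first-named group minus the second, with the SE as the bar; filled points were called, the grey line marks 0 and the dotted line the median of all tested genes. Lgals1 and Lgals3 lie furthest to the right in HFD against NC, at 2.95 and 1.77, and furthest to the left in SZ-A against HFD, at -1.84 and -1.12.

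FPKM are scaled by gene length, so levels can be set side by side. In NC livers the order of mean FPKM was Lgals9, Lgals8, Lgals3bp, Lgals1, Lgals4 and Lgals3, and the ranges of neighbours overlapped for Lgals1 and Lgals4 alone. In HFD livers Lgals1 stood in the second place, and the order was Lgals9, Lgals1, Lgals3bp, Lgals8, Lgals3 and Lgals4. The HFD ranges of Lgals1 and Lgals3bp overlapped, as did those of Lgals3bp and Lgals8. In SZ-A livers the order was Lgals9, Lgals8, Lgals3bp, Lgals1, Lgals3 and Lgals4, with overlaps between Lgals8 and Lgals3bp, Lgals3bp and Lgals1, and Lgals3 and Lgals4.

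The groups overlapped in the summed mRNA of the 5 lectins but HFD stood apart in the share of Lgals1. NC livers summed to 266 ± 15.1 FPKM, HFD livers to 286 ± 25.2 and SZ-A livers to 258 ± 32.6 (SD, n = 6), with overlapping ranges. The Lgals1 share of the sum averaged 3.68% ± 1.80 in NC livers, 23.9% ± 4.14 in HFD livers and 8.01% ± 4.02 in SZ-A livers. Its share was at least 16.6% in each HFD mouse and at most 15.3% in each other mouse. Lgals9 made up 72.8% ± 1.65, 57.8% ± 4.24 and 70.9% ± 4.01 of the sum, and Lgals8 made up 20.1% ± 1.599, 13.2% ± 1.42 and 17.3% ± 1.43. Lgals3 and Lgals4 stayed minor, at up to 5.92% and 2.92% in any mouse.

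**Figure D3:**
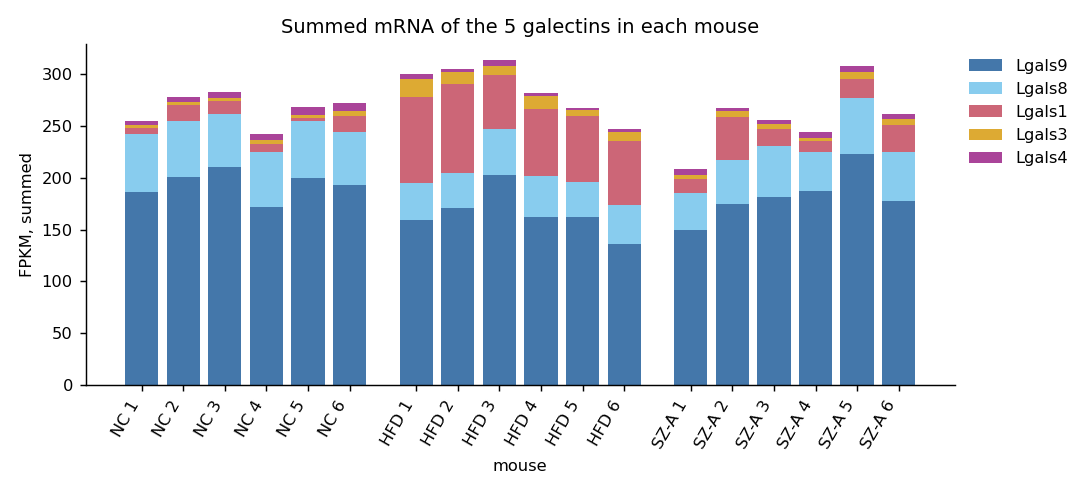
FPKM of Lgals9, Lgals8, Lgals1, Lgals3 and Lgals4 (y axis, from 0) stacked for each of the 18 mice (x axis). The Lgals1 block is 52.0 to 85.8 FPKM in HFD mice and at most 40.9 FPKM in the others, while the whole stack overlaps between the groups.

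Other genes of the galectin family were nearly silent, except Lgalsl. Lgalsl, which encodes a galectin-like protein thought not to bind lactose, measured 6.05 ± 1.73, 5.11 ± 0.860 and 4.14 ± 0.831 FPKM in NC, HFD and SZ-A livers (SD, n = 6). It was not called in any comparison: the log2 difference was -0.21 for HFD against NC (adjusted p = 0.419, limma), -0.30 for SZ-A against HFD (adjusted p = 0.315) and -0.51 for SZ-A against NC (adjusted p = 0.089). Lgals2, another gut galectin, had 7, 6 and 22 fragments summed over NC, HFD and SZ-A mice and was below the filter. Lgals12, known from adipocytes, and Grifin, known from the lens, had 2 fragments each, both times in a single HFD mouse. Lgals7 of skin and the pseudogenes Lgals1-ps1 and Lgals1-ps2 had 0 fragments in all 18 mice. Lgals6 was not analysed here.

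Lgals1 and Lgals3 were compared within the groups, where the diet and the drug do not differ by the mouse titles. NC mouse 6, whose diet label conflicts with its title, had the highest NC values of both genes, 15.8 and 4.05 FPKM. It is also 1 of the 2 NC mice farthest from the median of Lgals1. Across the 6 NC mice Pearson's r of their log2(FPKM + 0.1) was 0.64 (exact permutation p = 0.175, two-sided) and Spearman's rho was 0.83 (exact p = 0.0583). Across the 6 HFD mice r was 0.57 (exact permutation p = 0.256) and rho was 0.66 (exact p = 0.175). Across the 6 SZ-A mice r was 0.78 (exact permutation p = 0.0681) and rho was 0.83 (exact p = 0.0583). None of the 3 relations passed, with adjusted p of 0.256, 0.256 and 0.204 for r (exact permutation test) and 0.0875, 0.175 and 0.0875 for rho. Without the 2 mice farthest from the median of Lgals1, the r values were 0.15 for NC mice, 0.05 for HFD mice and 0.72 for SZ-A mice. Taking out these extremes narrows the range of Lgals1, which by itself tends to lower r. No dependence on those mice is read from it.

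**Figure D4:**
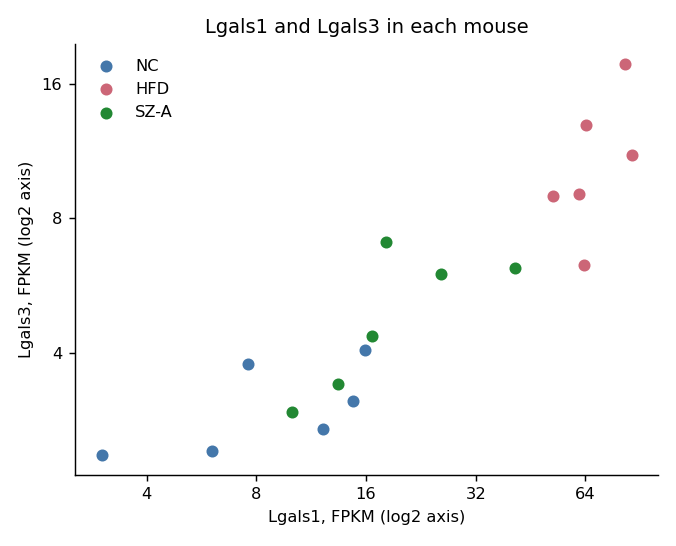
Lgals1 (x axis) against Lgals3 (y axis) in FPKM, both on log2 axes, with a point per mouse coloured by group. The HFD mice lie apart at the upper right, from 52.0 FPKM of Lgals1 upwards, and the SZ-A mice lie between them and the NC mice or among the NC mice.

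The genes whose levels moved most like each member from mouse to mouse were ranked by Pearson's r of log2(FPKM + 0.1) after taking out the group means, over 18 mice and 10216 genes. These are descriptions, the best of many, and all genes of a mouse share its library, cell make-up and depth. For Lgals1 they were Pea15a (r = 0.87), Cdkl2 (0.86) and Axl (0.84), a receptor tyrosine kinase of macrophages and stellate cells. Within the groups the r of Cdkl2 was 0.98 in NC and 0.95 in SZ-A mice but 0.16 in HFD mice. For Lgals3 they were Sparc (r = 0.92), a matrix protein of mesenchymal cells, S100a11 (0.88) and the ubiquitin-like Ubd (0.87). Lgals3bp stood next to Ly6e (r = 0.86), Oas1a (0.83) and Shisa5 (0.83), of which Ly6e and Oas1a are interferon-induced genes. Lgals9 stood next to Elovl5 (r = 0.89), an elongase of polyunsaturated fatty acids, the chemokine Ccl2 (0.84) and Amt (0.79) of the glycine cleavage system. For Lgals8 they were Eefsec (r = 0.82), Cntnap1 (0.80, but 0.14 within NC mice) and Xrcc4 (0.79), and for Lgals4 Kmt5c (0.84), A230050P20Rik (0.81) and Plppr2 (0.80). Among the members themselves the same r was 0.60 between Lgals9 and Lgals3bp, 0.59 between Lgals1 and Lgals3 and 0.57 between Lgals8 and Lgals9. It was close to 0 between Lgals1 and Lgals9 (0.01).

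Since Lgals9 and Lgals3bp are known as interferon-induced genes, the 250 bases before the RefSeq start site (GRCm38.p6) were searched on both strands for the interferon-stimulated response element (ISRE, GAAA repeated after any 2 bases), the AP-1 site (TGANTCA) and the kappaB site (GGGA and TTCC with any 2 bases between them). RefSeq start sites were at hand for 5 of the 6 members, all but Lgals1. The Lgals9 promoter held the single match among the 5, an ISRE on the reverse strand at 55 to 46 bases before the start, and is shown for that reason with the match in capitals.
Lgals9 promoter, chr11:78984925-78985174, minus strand: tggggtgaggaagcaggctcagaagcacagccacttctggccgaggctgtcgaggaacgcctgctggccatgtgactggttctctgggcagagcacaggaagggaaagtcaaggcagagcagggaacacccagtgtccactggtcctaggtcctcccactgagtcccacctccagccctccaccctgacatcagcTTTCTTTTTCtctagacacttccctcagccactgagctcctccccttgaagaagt
An ISRE match was in 2.98% of 32851 mouse promoters of this length, an AP-1 match in 6.75% and a kappaB match in 1.21%. The promoters of Lgals3, Lgals4, Lgals8 and Lgals3bp held none of these letters in this window. The RefSeq start of Lgals3 lies 6109 bases and that of Lgals8 3206 bases inside the gene bounds given above, so other start sites were not searched.

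The partners of the galectins were read from gene lists: glycoprotein ligands and receptors, the enzymes that build and cap galectin-binding sugars, and the response to damaged lysosomes. Of 26 ligands and receptors, 22 were tested in HFD against NC, and 7 were called higher and 1 lower (all genes 20.2%), with a median log2 difference of 0.16. Nrp1, the co-receptor of vascular growth factors that galectin-1 binds, rose from 6.07 to 11.7 FPKM (log2 difference 0.98, adjusted p = 0.00376, limma). Pdgfrb of stellate cells rose by 0.88 on the log2 scale (adjusted p = 0.00877, limma) and the hyaluronan receptor Cd44 by 0.72 (adjusted p = 0.043, limma). The lysosomal membrane protein Lamp1, the scavenger receptor Lrp1, the adhesion molecule Vcam1 and Bsg were the others called higher, and the integrin Itga5 was lower at -0.49. The calls of Cd44, Lrp1 and Itga5 were lost in 11, 8 and 7 of 20 alternatives. In SZ-A against HFD the median was -0.07 and 0 of the 22 were called by limma, 5 being lower at an unadjusted p under 0.05, which 14.8% of all tested genes passed in either direction, and 0 were called by voom on the fragments. Nrp1 remained at 13.0 FPKM in SZ-A livers and was called higher than in NC (log2 difference 1.08, adjusted p = 0.0161, limma).

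Of 28 genes for N-glycan branching and capping, 17 were tested and 2 rose in HFD against NC, a smaller share than the 20.2% of all genes. B4galt1, which adds the galactose that galectins bind, rose from 8.25 to 14.6 FPKM (log2 difference 0.79, adjusted p = 0.00254, limma). St6gal1, which caps that galactose with sialic acid, rose from 13.9 to 21.8 FPKM (log2 difference 0.70, adjusted p = 0.00889, limma). Mgat5, whose branches galectin-3 prefers, was at 0.89 and 1.16 FPKM and was not called. B4galt1 was also called higher in SZ-A than in NC (log2 difference 0.61, adjusted p = 0.00957, limma). In SZ-A against HFD 0 of the 17 were called by limma, 3 passing an unadjusted p under 0.05 (all genes 14.8%), and 0 by voom, with a median of 0.004.

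Of 28 genes of the damaged lysosome response, in which galectin-3, galectin-8 and galectin-9 take part, 27 were tested. The 4 called in HFD against NC were all lower: Ubxn1 (log2 difference -0.67), the autophagy genes Atg16l1 (-0.40) and Ulk1 (-0.36), and the lysosomal transcription factor Tfe3 (-0.30), a smaller share than the 20.2% of all genes. The calls of Atg16l1 and Tfe3 were lost in 14 and 4 of 20 alternatives, and that of Ulk1 in 1. The list's median was -0.07 against -0.03 for all genes, and it turned to 0.12 at the same total FPKM per mouse, where all genes stood at 0.15. In SZ-A against HFD 0 of the 27 were called by limma or by voom. At an unadjusted p under 0.05, 1 was higher (all genes 14.8% in either direction).

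Markers of cells known to make galectins were read in the same comparisons. Of 15 macrophage and monocyte markers 11 were tested, and 8 were called higher in HFD than in NC (all genes 20.2%). The median log2 difference of the 11 was 0.88, and Cd68 (1.35), Mpeg1 (1.28) and Lyz2 (1.05) were among the 8 called. The markers summed to 105 to 197 FPKM in NC mice, to 242 to 327 in HFD mice and to 159 to 260 in SZ-A mice, and no marker was at 0 in a group. In SZ-A against HFD all 11 log2 differences were negative, with a median of -0.49. Cd68 was called (-0.64, adjusted p = 0.0451, limma), where 0.147% of all genes were. The Cd68 call was lost in 11 of 20 alternatives (adjusted p from 0.0274 to 0.13, limma), 8 of them by leaving out a single mouse (HFD mouse 1, 2, 3 or 4, or SZ-A mouse 1, 4, 5 or 6) and the others without the filter, with all 18 mice in 1 fit and with a replicate block, and its log2 difference stayed between -0.82 and -0.58. Of the lipid-associated macrophage list, 5 of 10 tested genes were called higher in HFD than in NC (all genes 20.2%). Mmp12 had the largest log2 difference, 3.38, but passed the filter only through the HFD mice. Its means were 0.118, 2.46 and 0.557 FPKM in NC, HFD and SZ-A livers, the NC mean being near the pseudocount of 0.1. The Mmp12 difference ran from 1.53 to 4.30 over 20 alternatives, so its call and size carry no weight here. In SZ-A against HFD 0 of the 10 were called by limma or by voom. At an unadjusted p under 0.05, 6 were lower (all genes 14.8% in either direction). Of the Kupffer cell list 2 of 10, Adgre1 and Cd5l, were called higher in HFD, a share near the 20.2% of all genes, and these calls were lost in 10 and 11 of 20 alternatives. Other Kupffer cell markers went the other way without a call: 3 of the 10 log2 differences were negative, among them Cd163 (-0.81) and C6 (-0.72). At an unadjusted p under 0.05, 3 were higher and 2 lower (all genes 34.8% in either direction).

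Stellate cell and fibroblast markers followed with 11 of 16 called higher in HFD than in NC (all genes 20.2%). Their median was 0.58, with Col3a1 (2.69), Col1a1 (2.53) and Col1a2 (1.91) in front. The markers summed to 122 to 158 FPKM in NC mice, to 157 to 260 in HFD mice and to 141 to 194 in SZ-A mice. In SZ-A against HFD their median was -0.40 and 0 were called by limma or by voom. At an unadjusted p under 0.05, 8 were lower (all genes 14.8% in either direction). Hepatocyte markers went the other way in HFD against NC, with 7 of 12 called lower (all genes 20.2%) and a median of -0.69. Of the 12 log2 differences in SZ-A against HFD, 10 were positive, with a median of 0.22. Limma called 0 of these markers and voom 1, where voom called 27 of 10216 genes. At an unadjusted p under 0.05, 5 were higher (all genes 14.8% in either direction). At the same total FPKM per mouse, 7 macrophage and monocyte, 2 lipid-associated macrophage and 3 stellate markers were called in SZ-A against HFD. Under that scaling 216 of all 10216 tested genes were called, 206 of them lower, and the median of all genes was -0.15. The part of the marker shifts in the galectin differences was not tested.

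The level of Lgals1 differed between groups also relative to the summed level of these markers. The stellate sum lay mostly in Ecm1, Dcn and Colec11. Their NC and HFD means were 53.7 and 59.6, 31.2 and 39.6, and 23.8 and 30.9 FPKM. Col3a1 of the same list had means of 1.29, 8.96 and 3.01 FPKM in NC, HFD and SZ-A livers. In HFD against NC the log2 differences of Col3a1, Col1a1 and Col1a2 were 2.69, 2.53 and 1.91, beside 2.95 for Lgals1. In SZ-A against HFD they were -1.49, -1.79 and -1.30, beside -1.84 for Lgals1. The ratios below are to the whole sums and do not show Lgals1 rising beyond the collagens. No ratio to the collagens was taken, so Lgals1 relative to them was not tested. For each 100 FPKM of summed macrophage and monocyte markers, Lgals1 ran from 2.88 to 10.2 FPKM in NC mice, from 21.5 to 27.2 in HFD mice and from 6.31 to 20.8 in SZ-A mice. For each 100 FPKM of stellate cell and fibroblast markers it was at 1.98 to 12.1, 29.4 to 40.4 and 5.58 to 21.4. In both ratios all HFD mice were above all other mice. Lgals3 for each 100 FPKM of macrophage and monocyte markers ran from 1.503 to 2.71 in NC mice, from 2.21 to 5.44 in HFD mice and from 1.85 to 3.14 in SZ-A mice, with overlap between all groups. For each 100 FPKM of stellate cell and fibroblast markers Lgals3 ran from 1.53 to 2.71 in NC mice, from 3.99 to 6.83 in HFD mice and from 1.64 to 3.93 in SZ-A mice, so on this ratio all HFD mice were above all other mice. Lgals3bp had 17.6 ± 1.70, 15.97 ± 3.23 and 18.7 ± 1.44 for each 100 FPKM of macrophage and monocyte markers (SD, n = 6) and 17.99 ± 2.90, 22.4 ± 5.45 and 20.4 ± 2.59 for each 100 FPKM of stellate cell and fibroblast markers, with overlapping ranges in both. These ratios were added after the levels had been seen and carry no test.

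**Figure D5:**
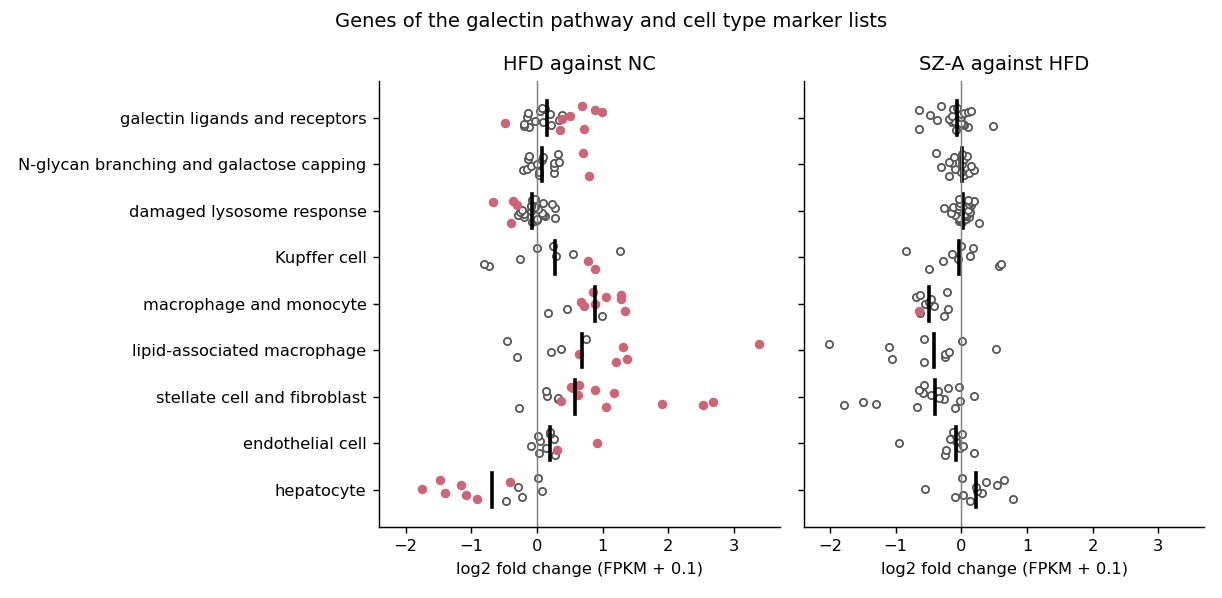
Log2 fold change of log2(FPKM + 0.1) (x axis) of each tested gene of 9 lists (y axis) in HFD against NC and in SZ-A against HFD; filled points were called, open points were not, and the bar is the list's median. In HFD against NC the medians furthest from 0 are those of macrophages and monocytes (0.88), lipid-associated macrophages (0.69), hepatocytes (-0.69) and stellate cells (0.58). The 1 filled point in SZ-A against HFD is Cd68, whose call was lost in 11 of 20 alternatives.

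The remaining cell lists held few tested genes. Endothelial markers had 2 of 11 called higher in HFD than in NC, Lyve1 (lost in 10 of 20 alternatives) and Eng, a share near the 20.2% of all genes. Neutrophil markers had 2 of 3 (all genes 20.2%), S100a8 (log2 difference 2.25) and S100a9 (2.29), and adipocyte markers 1 of 3, Plin4 (1.13). The other tested adipocyte markers were not called, and Cidec went the other way, from 54.4 FPKM in NC to 30.5 in HFD (-0.76), with Lipe at 0.15. Cholangiocyte and B cell markers had 0 of 2 each called. In either of these 2 lists 1 gene was lower at an unadjusted p under 0.05, which 34.8% of all genes passed in either direction. None of the 11 T and NK cell markers passed the filter, and their summed level was at most 5.07 FPKM in any mouse.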

How the data were processed

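Liver poly-A RNA was sequenced as paired-end reads on an Illumina NovaSeq. Per the submitters' processing notes, HISAT2 2.0.5, featureCounts 1.5.0-p3 and mm10 were used. The authors deposited FPKM values of 54532 genes, low ones included. Being no counts, they were tested with limma 3.58.1 (R 4.3.3) on log2(FPKM + 0.1) with an intensity trend, for 10216 genes with a mean of at least 1 FPKM. Each comparison was fitted on its own 2 groups of 6 mice, without covariates, and p-values were adjusted over all tested genes (Benjamini-Hochberg). Calls needed an adjusted p under 0.05 and a fold over 1.2. The fit was run on simulated data with independent genes and changes well above a fold of 1.2. Calls near that fold were not checked by it. No pair of mice was a duplicate (smallest chi-square per degree of freedom 18.6). The limma p-values set the difference between groups against the spread between mice of a group. Each gene's variance was drawn towards a trend over all tested genes.

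The members and the gene lists were chosen with earlier results of these data known. Named genes were the members, every other galectin gene, up to 3 genes per list with the largest change in either of 2 comparisons, and the 3 genes nearest to each member. Lamp1, Lrp1, Vcam1, Bsg, Itga5, Tfe3 and Cd5l were named after their values were seen, to complete a count. Ecm1, Dcn and Colec11 were also named after their values were seen, since they made up most of a sum. Alternatives were pseudocounts of 1 and 0.01, no filter, a common sum per mouse, median-ratio scaling, voom on whole fragments recovered from FPKM, all 18 mice in 1 fit, a replicate block and each mouse left out. Voom used the library sizes behind the FPKM, so it shares their scaling. Motifs were chosen after the levels were seen.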

Additional observations from a re-analysis of the deposited data

Results flagged for a closer look

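Lgals2, which encodes a galectin of the gut epithelium, was below the filter and in no comparison of the report, yet had more fragments in SZ-A livers than in controls. Its mean was 0.343 FPKM in SZ-A livers against 0.0803 in HFD and 0.107 in NC livers. SZ-A mice had 1 to 8 fragments each and 22 in all, HFD mice 0 to 3 each and 6 in all, and NC mice 0 to 3 each and 7 in all, so the ranges overlapped. Tested without the filter, the log2 difference was 1.34 for SZ-A against HFD (adjusted p = 0.289, limma) and 1.12 for SZ-A against NC (adjusted p = 0.227, limma), neither of which passed.

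None of the 18 groups of 6 values, 6 genes in 3 groups, held a mouse set apart from the rest by Dixon's criterion.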

How the results depend on the processing

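The fit called 2062 genes in HFD against NC, 15 in SZ-A against HFD and 981 in SZ-A against NC. The count for HFD against NC stayed within 1.5 times under every alternative run (1646 to 2145 with a mouse left out), also without NC mouse 6 (2025). The count for SZ-A against HFD was 0 without the filter (2741 genes at an unadjusted p under 0.05), 216 at a common sum per mouse, 27 by voom on the fragments and 35 with all 18 mice in 1 fit, and 2 to 49 with a mouse left out; it moved by over 1.5 times without HFD mouse 1, 2, 4 or 5 and without any SZ-A mouse. For SZ-A against NC it was 564 without the filter and 601 to 1179 with a mouse left out, the lowest without SZ-A mouse 3. The cause was not tested. Replicate numbers did not pair the mice, whose deviations correlated between -0.12 and 0.29 by number. With a replicate block the counts were 1647, 0 (1492 at an unadjusted p under 0.05) and 922, and the block ended the calls of Lgals1 in SZ-A against HFD (adjusted p = 0.123, limma) and Lgals4 in HFD against NC (adjusted p = 0.0671, limma).

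Of the galectins, Lgals9 in SZ-A against HFD turned to -0.040 at a common sum per mouse. Lgals4 in HFD against NC also lost its call without the filter (adjusted p = 0.0718, limma) and at a common sum (adjusted p = 0.0746, limma). Lgals1 in SZ-A against NC was called with all mice in 1 fit and with the block, and Lgals3 in SZ-A against HFD at a common sum (adjusted p = 0.0402, limma). Leaving out a single mouse brought a call to Lgals3 in SZ-A against NC (without SZ-A mouse 4), Lgals8 in SZ-A against NC (without SZ-A mouse 5) and Lgals9 in HFD against NC (without HFD mouse 3). Over all alternatives, 341 log2 differences of members kept direction and call, 12 lost and 6 gained a call, and 1 turned. In SZ-A mice the correlation of Lgals1 and Lgals3 was 0.81 at a common sum and 0.63 to 0.96 with a mouse left out. It passed an unadjusted exact p under 0.05 in these 2 cases, at a common sum and without SZ-A mouse 5, and in no other alternative run. Depth limits Lgals1 and Lgals3 in NC most, where the fewest fragments were 44 and 71.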
